A study of Neotoma stephensi and Rattus norvegicus with 6 samples.

Results

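The genes described here carry zinc, iron, copper and magnesium across membranes. They were chosen by symbol: every gene whose symbol starts with Slc30a, Slc39a, Slc41a, Slc11a, Slc31a or Cnnm, with Slc40a1, Tfrc, Atp7a, Atp7b, Trpm6, Trpm7, Steap3 and Steap4. The rule took 42 of the 15481 mouse genes listed in the count files, and 32 of the 42 had enough reads to be tested. RNA was sequenced from the foregut, a piece of the fornix ventricularis at the top of the stomach, of 3 Stephens' woodrats (Neotoma stephensi) and 3 lab rats (Rattus norvegicus, strain Sprague Dawley). No drug treatment or engineered allele is named for any animal, and all were female. The labels call all 6 virgin, whereas the methods say this was unknown for the woodrats. The woodrats were wild-caught, given juniper foliage in transport and overnight, and dissected the day after arrival. The lab rats came from a breeder and were kept for months on standard chow in open cages in a room that also housed woodrats. Species, origin, housing and diet therefore changed together and cannot be told apart, and animal ages are not given in the sources used here.

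Metal ions are cofactors that cells need but cannot leave free, so each metal has importers, exporters and stores. Slc39a proteins move zinc into the cytosol, and Slc30a proteins move it out of the cytosol or into vesicles. Iron bound to transferrin enters through the transferrin receptor (Tfrc), is reduced in endosomes by Steap proteins and crosses the membrane through Slc11a2, while Slc40a1 (ferroportin) exports it with the help of copper-containing ferroxidases. Copper enters through Slc31a1 and leaves through the copper pumps Atp7a and Atp7b. Magnesium enters through the channels Trpm6 and Trpm7, and the Slc41a and Cnnm proteins take part in its exchange and extrusion. Stratified squamous epithelia such as the rodent foregut are rich in zinc-binding metallothioneins, and zinc deficiency is known for thickening and scaling of such linings.

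Each animal had between 5439642 and 7932637 counted reads, of which 2292 to 6081 fell on the 42 genes. All levels are CPM, the reads of a gene relative to the library size scaled with edgeR's TMM factors, in which 3 reads correspond to between 0.355 and 0.586 CPM, depending on the animal. Levels are compared between animals, for 1 gene or for a fixed set of genes, because no transcript lengths were used. Sums and shares of family reads weigh each gene by its reads, so a share is not a proportion of transcripts. A share also depends on the other genes of its family. The label of the tissue was checked against a list of markers, and all 7 markers of stratified squamous epithelium (among them Krt5, Krt13 and Trp63) had reads in every animal. Of the 6 glandular stomach markers in the files, 5 had no reads in the lab rats, and Pgc, Tff2, Gkn1 and Muc6 were at or below 0.195 CPM in every woodrat, while Muc5ac had 17, 12 and 33 woodrat reads. The sixth, Atp4a, had 5.69 to 6.05 CPM in woodrats and 6.74 to 9.76 CPM in lab rats. Markers of several other cell types differed between the species. The summed level of 7 smooth muscle markers was 39100 to 121000 CPM in woodrats and 10900 to 20200 CPM in lab rats. Of the 7, 6 did not overlap, as was so for 56.2% of all tested genes. At a false discovery rate below 0.01 in edgeR's test only Mylk passed, and Myh11, Des and Cnn1 missed it at 0.0102, 0.0106 and 0.0109. The sum of 6 leukocyte markers was 8.59 to 23.9 CPM in woodrats against 75.7 to 111 CPM in lab rats, although Cd79a among them was higher in each woodrat. That of 3 erythroid markers was 12.0 to 35.9 CPM against 253 to 497 CPM. Whole tissue was measured, so fewer cells of a type and less RNA per cell cannot be told apart.

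At the main threshold and by overlap of animals, the share of members that differed between the species was below that of all genes. The difference in share was not tested. At a false discovery rate (FDR) below 0.01 in edgeR's quasi-likelihood test, 4 of the 32 tested members (12.5%) were differentially abundant, against 20.0% of all 12603 tested genes. The single member higher in woodrats was Slc41a2 (background 10.3%), and the 3 lower ones were Slc39a2, Slc11a2 and Slc30a6 (background 9.71%). In 15 of the 32 members (46.9%), all animals of one species lay above all of the other, which was so for 56.2% of all tested genes. The woodrats lay above in 9 members (background 28.8%) and the lab rats in 6 (background 27.4%). The median log2 fold change of the members, woodrat over lab rat, was 0.14, and that of all tested genes was 0.03. Only 26 of the 32 had at least 1 CPM in every animal. Slc41a2 passed the filter through the woodrats alone and Slc39a2 through the lab rats alone, so these had to differ in order to be tested. At an unadjusted p below 0.05, 9 members were higher and 5 lower (background 26.0% and 23.7%), and DESeq2 called 6 higher and 5 lower (background 15.8% and 15.3%). That is 11 of 32 members with DESeq2, against 3916 of 12603 genes. In edgeR's test at an FDR below 0.05 it was 14 of 32, against 5026 of 12603. With DESeq2 and at an FDR below 0.05 the share of members was not below that of all genes. At the unadjusted p, taking both directions together, it was below.

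**Figure D1:**
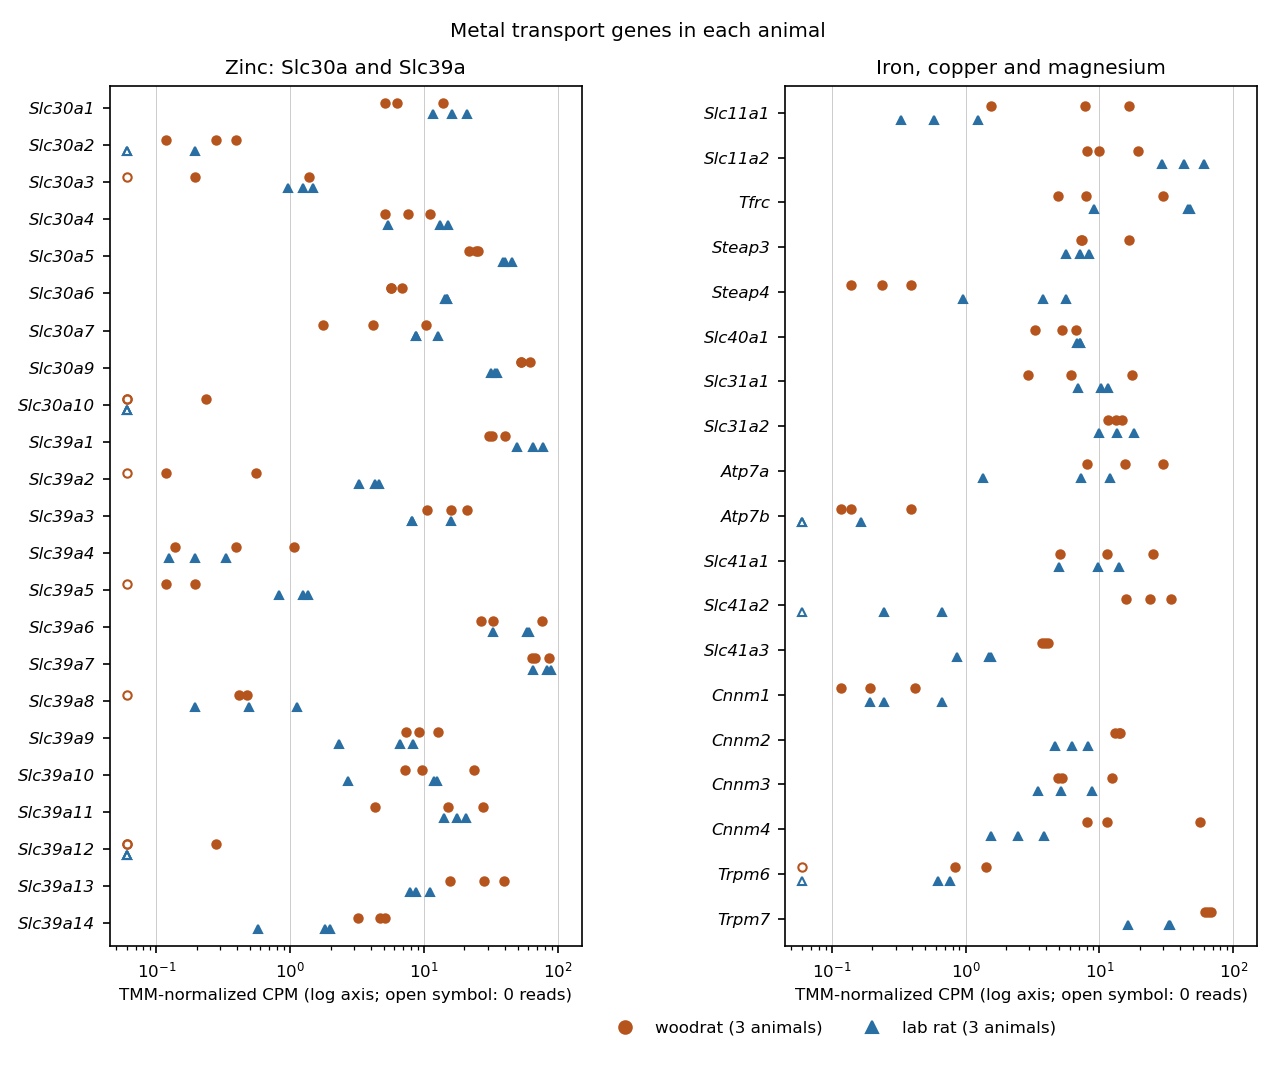
TMM-normalized CPM (log axis) of the 42 metal transport genes, with each circle 1 woodrat and each triangle 1 lab rat; open symbols at the left edge are animals with 0 reads. Slc41a2 is at 15.9 to 34.2 CPM in woodrats and at most 0.662 CPM in lab rats, whereas for Slc39a7, Slc31a2 and Slc39a6 the species overlap.

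The largest log2 fold change of a tested member was found among the magnesium genes. Slc41a2 (ENSMUSG00000034591.5), a magnesium transporter of the Slc41 family, had 34.2, 23.7 and 15.9 CPM in woodrats 1, 2 and 3, from 175, 171 and 134 reads. In lab rats 1, 2 and 3 it had 0.248, 0.662 and 0 CPM, from 2, 4 and 0 reads. Every woodrat was far above every lab rat, and the lab rat level was at the edge of what these libraries can show. Woodrats exceeded lab rats 74.6-fold, or by 6.22 on the log2 scale with a standard error (SE) of 0.66 (FDR = 0.000638, edgeR), and each of 14 alternative fits called it at log2 fold changes from 5.77 to 7.21. Among the woodrats the order of Slc41a2 was that of the smooth muscle gene Myh11, with 33300, 18500 and 12100 CPM in woodrats 1, 2 and 3, and Myh11 was at 2830 to 4530 CPM in lab rats. The part of muscle content in the Slc41a2 difference was not tested.

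The share of Slc41a2 in the reads of the Slc41 family needs no scaling between libraries, but it also depends on Slc41a1 and Slc41a3. It uses the same Slc41a2 reads, of a gene that passed the filter through the woodrats alone, and is no separate support. Of the reads on Slc41a1, Slc41a2 and Slc41a3, Slc41a2 took 79.2% (Wilson 95% interval 73.4 to 84.0%) in woodrat 1, 61.1% (55.2 to 66.6%) in woodrat 2 and 35.2% (30.5 to 40.1%) in woodrat 3. In lab rats 1 and 2 the share was 2.27% (0.625 to 7.91%) and 4.12% (1.61 to 10.1%), and in lab rat 3 it was 0 of 34 reads, which allows a share of up to 8.82% by the limit of 3 reads (Wilson bound 10.2%). The woodrats differed from one another beyond these intervals, which cover counting error only, but none came near the lab rats. Slc41a1, a sodium-dependent magnesium exchanger, overlapped between the species, with 5.08, 11.4 and 25.1 CPM in woodrats and 9.80, 13.9 and 5.01 CPM in lab rats (log2 fold change 0.54, FDR = 0.480, edgeR). Slc41a3, a mitochondrial member of the family, had 3.91, 3.75 and 4.15 CPM in woodrats and 0.869, 1.49 and 1.54 CPM in lab rats. The species did not overlap, and the log2 fold change of 1.61 (SE 0.41) stopped short of the threshold (FDR = 0.0154, edgeR).

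Cnnm4 (ENSMUSG00000037408.10), which extrudes magnesium at the basolateral side of epithelia, had 8.01, 11.4 and 56.5 CPM in woodrats and 3.85, 2.48 and 1.54 CPM in lab rats. All woodrats were higher than all lab rats, but woodrat 3 carried most of the difference. With a log2 fold change of 3.24 (SE 0.78) and an FDR of 0.0125 in edgeR's test, it was one of the 3 members nearest to the threshold without passing. Without woodrat 1, whose value was the lowest of the woodrats, the FDR was 0.00597, and without woodrat 3 the log2 fold change was 1.85. The fits without any of the other 5 animals did not pass (FDR = 0.0136 to 0.0616, edgeR). Among woodrats 6 of the 7 squamous markers had the same order, all but Ivl, with 3.32, 11.4 and 101 CPM for Trp63 and 2.93, 23.7 and 65.1 CPM for Dsg3, and their part in the Cnnm4 values was not tested. Within the Cnnm family the share of Cnnm4 reads was 30.6% in woodrat 1, 36.6% in woodrat 2 and 67.8% in woodrat 3, against 20.1%, 15.0% and 15.7% in the lab rats. The Wilson interval of woodrat 1 (23.4 to 38.9%) overlapped that of lab rat 1 (14.6 to 27.2%), so for this pair the shares were not separated at this depth.

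Trpm7 (ENSMUSG00000027365.13), a ubiquitous ion channel fused to a protein kinase, was even among woodrats, with 61.1, 67.5 and 64.3 CPM. Lab rats had 33.3, 33.7 and 16.4 CPM. The gap was wider than the spread within either species, at a log2 fold change of 1.21 (SE 0.30, FDR = 0.0151, edgeR). Cnnm2, best known for renal magnesium handling, had 13.1, 14.0 and 14.3 CPM in woodrats and 6.20, 8.27 and 4.62 CPM in lab rats. The species were again apart, with an FDR of 0.0232 at a log2 fold change of 1.11 (SE 0.32, edgeR). Cnnm3 overlapped, with 4.88 to 12.4 CPM in woodrats and 3.47 to 8.81 CPM in lab rats. Trpm6, the epithelial partner of Trpm7, and Cnnm1 were too low to be tested, with 18 and 5 reads over the 3 woodrats and 9 and 7 reads over the 3 lab rats.

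Of the 9 magnesium genes, 7 were tested, 1 was higher in woodrats at the threshold and 0 were lower (edgeR). At an unadjusted p below 0.05 these counts were 5 and 0 (background 26.0% and 23.7%), and with DESeq2 at the same FDR they were 4 and 0 (background 15.8% and 15.3%). The called share of 14.3% was below the 20.0% of all genes. All 7 log2 fold changes were positive, from 0.37 for Cnnm3 to 6.22 for Slc41a2, with a median of 1.21 against 0.03 over all tested genes. Among all 12603 tested genes 6411 were positive. The direction of Slc41a2 was set by the filter, which it passed through the woodrats alone. The signs of the 7 genes held under each scaling tried, and without woodrat 3 the log2 fold changes of Slc41a1 and Cnnm3 were both -0.21. Summed over the 9 genes, woodrats had 130, 138 and 194 CPM and lab rats 63.9, 66.3 and 33.5 CPM. The species did not overlap in this sum, for which no background over other sums was computed. Genes with many reads weigh most in it. Trpm7, Cnnm4 and Slc41a2 had woodrat means of 64.3, 25.3 and 24.6 CPM, in a mean sum of 154 CPM. In lab rats these means were 27.8, 2.62 and 0.303 CPM, in a mean sum of 54.6 CPM.

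**Figure D2:**
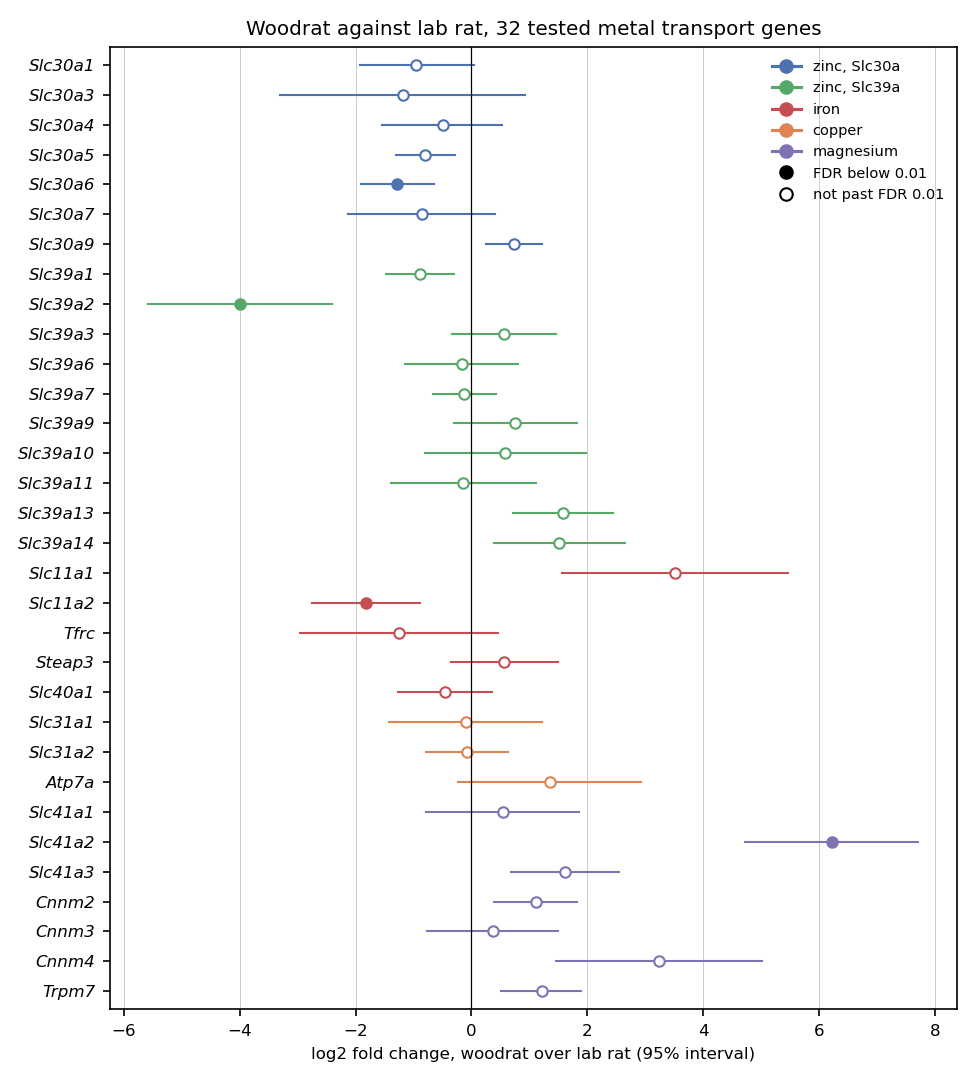
Log2 fold change (woodrat over lab rat) of the 32 tested members with its 95% interval from edgeR's quasi-likelihood fit; filled points have an FDR below 0.01, and colours give the metal. Slc41a2 lies furthest to the right at 6.22 and Slc39a2 furthest to the left at -3.99, and the 7 magnesium genes all lie to the right of 0.

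Among the zinc importers, Slc39a2 (ENSMUSG00000072572.7) was the member most reduced in woodrats. This plasma membrane importer has been studied mainly in keratinocytes. It had 0, 4 and 1 reads in woodrats 1, 2 and 3 (0, 0.555 and 0.118 CPM) and 37, 26 and 17 reads in lab rats 1, 2 and 3 (4.59, 4.30 and 3.27 CPM). The lab rats were close to one another and all above the woodrats, of which woodrats 1 and 3 were below the level of 3 reads. On the log2 scale the change was -3.99 (SE 0.70, FDR = 0.00346, edgeR). The call was lost without any single lab rat (FDR = 0.0118 to 0.0135, edgeR), and the log2 fold change stayed between -5.52 (without woodrat 2) and -3.58 when each animal was left out in turn. As a share of the reads on all 14 Slc39a genes, Slc39a2 held 1.84%, 1.49% and 1.49% in lab rats, against 0.259% and 0.043% in woodrats 2 and 3. In woodrat 1 it was 0 of 1168 reads, which allows up to 0.257% by the limit of 3 reads (Wilson bound 0.328%).

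Slc39a5, an importer of the basolateral membrane known from pancreas and intestine, was too low to be tested. It had 1, 0 and 1 reads in woodrats and 10, 5 and 7 reads in lab rats, and every lab rat was above every woodrat in CPM. In the fit without a filter its FDR was 0.0163 (log2 fold change -3.31, edgeR), which did not pass. Slc39a4, the intestinal zinc importer, had 12 reads over the woodrats and 4 over the lab rats, and Slc39a8, which also carries manganese, had 7 and 13. Slc39a12, known from brain, had 2 reads in woodrat 2 and none elsewhere. A difference in these 3 genes was not detectable at this depth.

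In the other direction the member nearest to the threshold was Slc39a13 (ENSMUSG00000002105.14), a transporter of the secretory pathway needed for connective tissue. It had 39.3, 28.0 and 15.6 CPM in woodrats and 7.82, 11.1 and 8.67 CPM in lab rats. All woodrats were above all lab rats, and the order among woodrats was again that of Myh11. Its log2 fold change of 1.58 (SE 0.38) missed the threshold (FDR = 0.0120, edgeR), and without woodrat 3 the FDR was 0.00298. The other 5 fits without 1 animal did not pass (FDR = 0.0285 to 0.0466, edgeR), and the value was lowest without woodrat 1, at 1.25. Its share of the Slc39a reads was 17.2%, 13.1% and 5.68% in woodrats and 3.13%, 3.84% and 3.95% in lab rats. Of 5 fibroblast markers, 4 had an FDR above 0.01 and the fifth, Dcn, was lower in woodrats (edgeR), and their summed level overlapped at 1050 to 2530 CPM in woodrats and 1990 to 2580 CPM in lab rats. The part of cell mixture in the Slc39a13 values was not tested. Slc39a14, which also carries iron and manganese, had 4.69, 5.14 and 3.20 CPM in woodrats and 1.99, 1.82 and 0.578 CPM in lab rats, again without overlap (log2 fold change 1.52, SE 0.50, FDR = 0.0393, edgeR).

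Slc39a1, a broadly expressed importer, was lower in each woodrat (30.3, 32.1 and 40.2 CPM) than in each lab rat (64.5, 76.9 and 49.1 CPM), at a log2 fold change of -0.89 that did not pass (FDR = 0.0241, edgeR). Slc39a7 of the endoplasmic reticulum and Slc39a6 overlapped between the species. Slc39a7 had 85.0, 67.5 and 64.4 CPM in woodrats and 64.7, 83.2 and 88.8 CPM in lab rats, and its log2 fold change of -0.13 had a 95% interval from -0.67 to 0.42. Slc39a6 and its partner Slc39a10 reached their highest woodrat value in woodrat 3, at 75.8 and 23.6 CPM. Slc39a3, Slc39a9 and Slc39a11 had log2 fold changes of 0.57, 0.75 and -0.14 with overlapping animals and FDR values from 0.229 to 0.863 (edgeR). Over the Slc39a family, 10 of 14 genes were tested, 5 log2 fold changes were positive and 5 negative, and the median was 0.22. The summed level was 228, 215 and 275 CPM in woodrats and 250, 289 and 220 CPM in lab rats, which overlapped.

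Of the zinc exporters, 1 passed the threshold, and it was lower in woodrats. Slc30a6 (ENSMUSG00000024069.11) pairs with Slc30a5 to load zinc into the secretory pathway. It had 5.66, 6.80 and 5.69 CPM in woodrats and 14.4, 14.9 and 14.8 CPM in lab rats. Both species were tight and did not overlap, the level being 2.42-fold lower in woodrats (log2 fold change -1.28, SE 0.28, FDR = 0.00805, edgeR). Leaving out any animal, or scaling by total counts (FDR = 0.0145), ended the call, and without 1 animal the log2 fold change stayed between -1.41 and -1.23. Its partner Slc30a5 had 25.2, 21.8 and 24.4 CPM in woodrats and 45.0, 39.0 and 40.3 CPM in lab rats, also without overlap, and its log2 fold change of -0.80 (SE 0.22) did not pass (FDR = 0.0216, edgeR).

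Slc30a9, linked to zinc export from mitochondria, had 61.9, 53.0 and 53.2 CPM in woodrats and 35.2, 33.9 and 31.8 CPM in lab rats. The animals of each species were close and the species apart, at a log2 fold change of 0.73 (SE 0.21) that did not pass (FDR = 0.0252, edgeR). Within the Slc30a reads its share was 56.8%, 54.3% and 44.7% in woodrats and 24.4%, 26.6% and 27.9% in lab rats, with the lowest woodrat bound at 41.7% and the highest lab rat bound at 31.7%. These intervals did not overlap between the species.

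The plasma membrane exporter Slc30a1, whose transcript is induced by zinc, had 6.25, 5.14 and 13.9 CPM in woodrats and 21.0, 16.2 and 11.7 CPM in lab rats. Woodrat 3 overlapped with lab rat 3, and the log2 fold change was -0.95 (FDR = 0.112, edgeR). Slc30a4 and Slc30a7, which fill vesicles and the secretory pathway, had log2 fold changes of -0.50 and -0.86 with overlapping animals, and Slc30a7 was at -1.73 without woodrat 3 (FDR = 0.0208, edgeR). Slc30a3, the zinc transporter of synaptic vesicles, was at or below 1.49 CPM in all animals. Slc30a2, a vesicular exporter known from the mammary gland, had 5 reads over the woodrats and 1 over the lab rats, and Slc30a10, a manganese exporter, had 2 reads in woodrat 3 only. Of the 7 tested exporters, 6 had a negative log2 fold change, against 6144 of all 12603 tested genes, and the median of the exporters was -0.86. At the threshold 1 was lower and 0 were higher (edgeR). An unadjusted p below 0.05 was reached by 2 lower and 1 higher exporter, and DESeq2 called 2 lower and 0 higher. Over all genes 23.7% and 26.0% reached that p in the lower and higher direction, and DESeq2 called 15.3% and 15.8%. These directions were kept under each scaling tried.

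**Figure D3:**
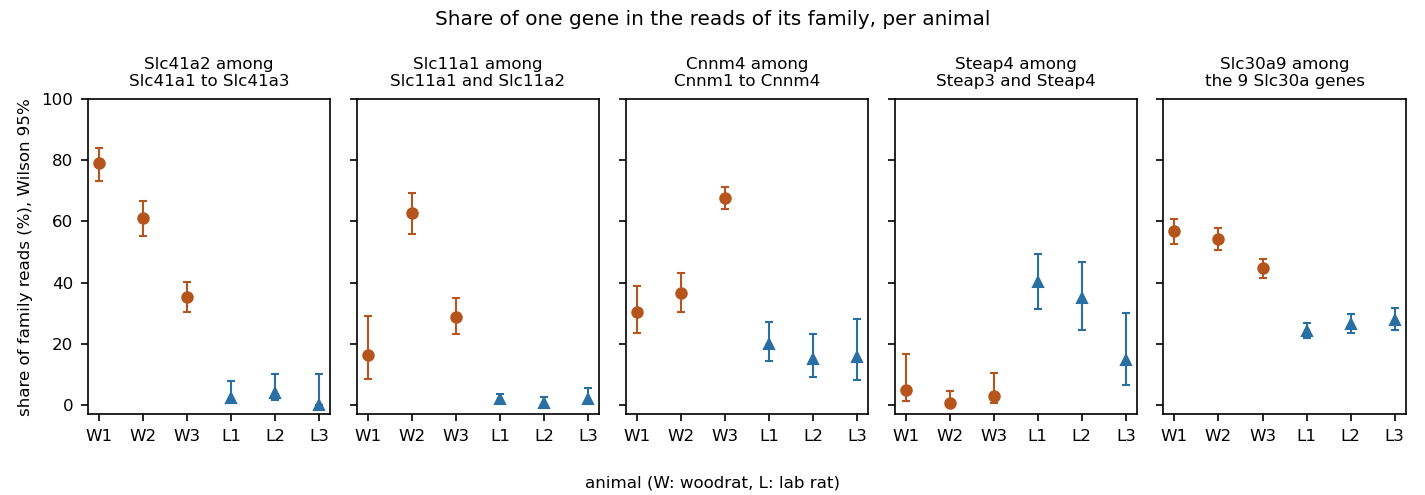
Share (%) that 1 gene took of the reads of its family in each animal (W, woodrat; L, lab rat), with Wilson 95% intervals for counting error. Slc41a2, Slc11a1 and Slc30a9 take a larger share in every woodrat than in every lab rat, Steap4 a smaller one, and for Cnnm4 the intervals of woodrat 1 and lab rat 1 overlap.

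Of the iron genes, the transcript of the membrane carrier Slc11a2 was lower in woodrats. Slc11a2 (ENSMUSG00000023030.15), the proton-coupled importer of ferrous iron, had 8.01, 9.85 and 19.4 CPM in woodrats from 41, 71 and 164 reads. Lab rats 1, 2 and 3 had 60.4, 43.0 and 29.5 CPM from 487, 260 and 153 reads. All lab rats were above all woodrats, with woodrat 3 and lab rat 3 nearest to each other. The woodrat level was 3.54-fold lower (log2 fold change -1.82, SE 0.41, FDR = 0.00933, edgeR). The call lay close to the threshold and was lost without any one animal except woodrat 3 (FDR = 0.015 to 0.0375, edgeR) and also with total counts (FDR = 0.0247) and with a filter at 5 CPM (FDR = 0.0112). Without 1 animal the log2 fold change ranged from -2.31 to -1.53.

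Its relative Slc11a1 (ENSMUSG00000026177.10), which pumps metal out of the phagosomes of macrophages and neutrophils, had 8, 120 and 66 reads in woodrats (1.56, 16.7 and 7.82 CPM) and 10, 2 and 3 reads in lab rats (1.24, 0.331 and 0.578 CPM). The species did not overlap in CPM, although woodrat 1 was close to lab rat 1. It missed the threshold at a log2 fold change of 3.51 (SE 0.86, FDR = 0.0130, edgeR), and leaving out woodrat 1 gave 3.99 with an FDR of 0.00269. None of the other 5 fits without 1 animal passed (FDR = 0.0151 to 0.059, edgeR), and the value was 2.61 without woodrat 2 and 4.23 without lab rat 1. Of the reads on both Slc11a genes, Slc11a1 took 16.3%, 62.8% and 28.7% in woodrats and 2.01%, 0.763% and 1.92% in lab rats. The lowest woodrat bound of 8.51% was above the highest lab rat bound of 5.50%. These shares also reflect Slc11a2, which was lower in woodrats. Woodrat 1 and lab rat 1 had 8 and 10 reads of Slc11a1, but 41 and 487 reads of Slc11a2. Of 4 tested leukocyte markers, Ptprc, Csf1r and C1qa were lower in woodrats and Cd68 overlapped. Of those too low to be tested, Cd3e had 1, 2 and 1 reads in woodrats and 12, 5 and 3 in lab rats. Cd79a went the other way, with 5, 11 and 3 reads in woodrats and 2, 0 and 0 in lab rats. The 3 neutrophil markers in the files were too low to be tested, with summed levels of 0.833 to 9.38 CPM in woodrats and 0.578 to 1.86 CPM in lab rats. Among them S100a9 had 8.79, 0.833 and 0.829 CPM in woodrats and 0.62, 0.331 and 0.385 CPM in lab rats, and S100a8 and Mpo overlapped. The part of leukocytes and neutrophils in the Slc11a1 values was not tested.

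Tfrc, the transferrin receptor, varied more within the species than between them. It had 4.88, 7.91 and 29.7 CPM in woodrats and 47.3, 45.5 and 9.05 CPM in lab rats, so woodrat 3 was above lab rat 3. The log2 fold change was -1.25 with a 95% interval from -2.96 to 0.46 (FDR = 0.215, edgeR), and it was -2.40 without woodrat 3. Of the 7 squamous markers, 6 were lowest in woodrat 1 and highest in woodrat 3, as Tfrc was. Lab rat 3, where Tfrc was low, had the lowest lab rat value for 3 of them (such as Trp63) and the highest for 3 others (such as Krt5). Markers of erythroid cells, whose precursors are rich in this receptor, were lower in woodrats (3 of 3 tested, edgeR). The part of either in these values was not tested. The exporter Slc40a1 (ferroportin) had 3.32, 6.66 and 5.21 CPM in woodrats and 6.83, 7.11 and 7.13 CPM in lab rats, without overlap, at a log2 fold change of -0.46 (FDR = 0.328, edgeR).

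Steap3, which reduces iron in the endosome for Slc11a2, had 7.23, 16.5 and 7.46 CPM in woodrats and 8.31, 7.11 and 5.59 CPM in lab rats, and its FDR was 0.294 (edgeR). Steap4 (ENSMUSG00000012428.9), a metalloreductase for iron and copper, had 2, 1 and 2 reads in woodrats and 45, 23 and 5 reads in lab rats. That is 0.391, 0.139 and 0.237 CPM against 5.58, 3.80 and 0.963 CPM, with every lab rat above every woodrat. The filter used CPM before TMM scaling. With 5 of 6213053 reads lab rat 3 was under 1 CPM, so the gene was left out. Without a filter edgeR gave -3.74 on the log2 scale (SE 0.79, FDR = 0.00601). Steap4 took 5.13%, 0.833% and 3.08% of the Steap3 and Steap4 reads in woodrats and 40.2%, 34.8% and 14.7% in lab rats. The intervals of woodrat 1 (1.42 to 16.9%) and lab rat 3 (6.45 to 30.1%) overlapped. Of the 6 iron genes, 5 were tested, 1 was lower and 0 were higher at the threshold (edgeR), 1 and 1 had an unadjusted p below 0.05, and DESeq2 called 1 and 1. The share called was 20%, and that of all genes was 20.0%.

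No copper gene passed the threshold in edgeR's test, none of the 3 tested had an unadjusted p below 0.05, and DESeq2 called 0 of them. The importer Slc31a1 had 2.93, 6.11 and 17.5 CPM in woodrats and 10.3, 11.6 and 6.93 CPM in lab rats, and Slc31a2 had 11.5 to 14.6 CPM and 9.92 to 18.1 CPM. Their log2 fold changes were -0.10 and -0.08, with 95% intervals from -1.42 to 1.22 and from -0.79 to 0.63, so for Slc31a1 a difference of more than 2-fold in either direction lay within the interval. The pump Atp7a had 8.01, 15.5 and 29.6 CPM in woodrats and 12.0, 7.28 and 1.35 CPM in lab rats, an overlap with a log2 fold change of 1.35 (FDR = 0.153, edgeR). Atp7b, the pump of liver, had 4 reads over the woodrats and 1 over the lab rats.

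A list of 59 other genes of metal handling, written down by metal, was examined around these carriers. Of them 52 were in the files and 47 were tested, and 8 were differentially abundant (17.0%, against 20.0% of all genes): 3 were higher in woodrats and 5 lower. Their median log2 fold change was -0.03. Of the 23 tested iron genes 1 was higher and 4 lower, of 5 zinc genes 1 was higher and 1 lower, and of 10 magnesium genes 1 was higher and 0 lower. Of 9 copper genes none passed in edgeR's test, where 0 and 2 had an unadjusted p below 0.05 in the higher and lower direction and DESeq2 called the same numbers.

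The ferroxidases, which oxidize iron as ferroportin releases it, included Heph and Cp, which were lower in woodrats, and Hephl1, which was higher. Heph (hephaestin, ENSMUSG00000031209.13), the ferroxidase of the intestinal lining, had 0, 2 and 2 reads in woodrats and 214, 175 and 105 reads in lab rats. In CPM this was 0, 0.278 and 0.237 against 26.6, 28.9 and 20.2, and no woodrat reached the level of 3 reads. By edgeR's test Heph was lower in woodrats (log2 fold change -6.92, SE 0.53, FDR = 0.000212), and all 14 alternative fits called it. Heph and Steap1 passed the filter through the lab rats alone and Hephl1 through the woodrats alone, so these 3 had to differ to be tested. Hephl1 (ENSMUSG00000031936.9), its paralog, had 10, 53 and 283 reads in woodrats (1.95, 7.36 and 33.5 CPM) and 1, 0 and 0 reads in lab rats. The woodrats were spread widely, with woodrat 3 highest as for Cnnm4, yet the lowest of them was above every lab rat. Between animals edgeR gave a log2 fold change of 7.69 (SE 1.44, 95% interval 4.42 to 10.97, FDR = 0.00445). The FDR rose to between 0.0178 and 0.0302 without any single lab rat. Over the summed libraries the ratio was 321 (exact 95% counting interval 57.3 to 12700). The counting interval covers counting error only and not the spread between animals. Cp (ceruloplasmin), the ferroxidase of plasma, had 1.95, 0.555 and 0.237 CPM in woodrats and 8.69, 5.79 and 8.86 CPM in lab rats (log2 fold change -3.19, SE 0.65, FDR = 0.00607, edgeR), and it was -4.27 without woodrat 1.

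The other Steap genes, Steap1 and Steap2, were lower in woodrats. Steap1, a relative that lacks full reductase activity by itself, had 1, 0 and 0 reads in woodrats and 49, 49 and 51 reads in lab rats, or 6.08, 8.10 and 9.82 CPM. The lab rats were even, and edgeR gave a log2 fold change of -6.88 (SE 0.76, FDR = 0.000711). Over the summed libraries the ratio of lab rats over woodrats was 160. Its exact 95% counting interval, which leaves out the spread between animals, was 28.3 to 6380. Steap2 had 0.586, 1.25 and 0.237 CPM in woodrats and 5.09, 8.27 and 4.62 CPM in lab rats (log2 fold change -3.10, SE 0.59, FDR = 0.00465, edgeR). Every lab rat was above every woodrat for Steap1, Steap2 and Steap4, and Steap3 overlapped. Steap1 passed the filter through the lab rats alone and Steap4 was not tested. A count over the Steap genes therefore cannot be set against the 27.4% of all tested genes. When each of the 6 animals was left out in turn, Cp and Steap2 were each called 2 times, and Heph and Steap1 all 6 times. The log2 fold change of Steap2 was -3.94 without woodrat 2, that of Steap1 was -8.80 without woodrat 1, and that of Hephl1 was 6.07 without woodrat 3 and 9.53 without lab rat 1.

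**Figure D4:**
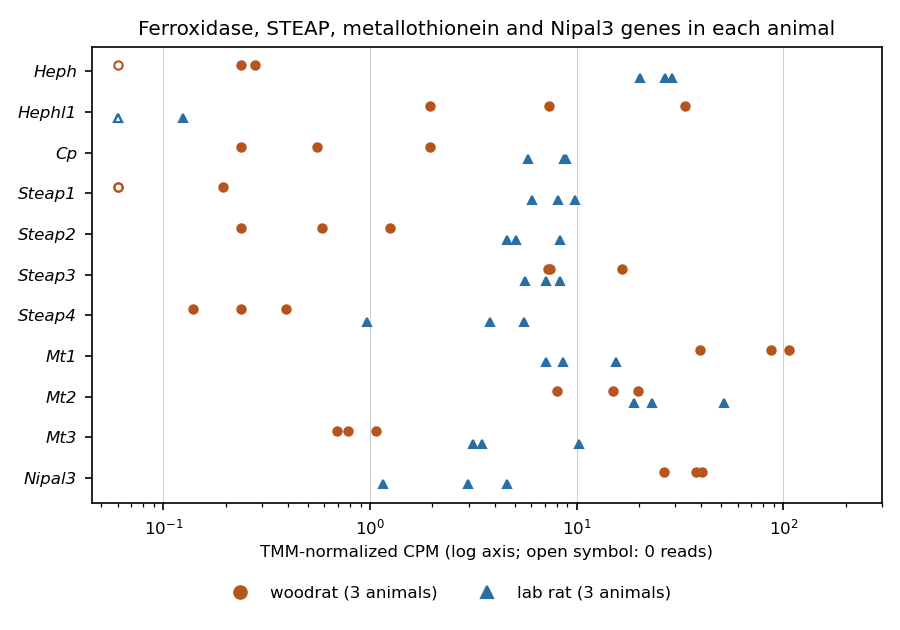
TMM-normalized CPM (log axis) of ferroxidase, Steap, metallothionein and Nipal3 genes in each woodrat (circles) and lab rat (triangles); open symbols are 0 reads. Heph and Steap1 are at or below 0.278 CPM in woodrats, Hephl1 at or below 0.124 CPM in lab rats, and Steap3 and Mt2 overlap.

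Metallothioneins bind zinc and copper in the cytosol and are induced by zinc. Mt1 had 39.3, 87.2 and 106 CPM in woodrats and 7.07, 8.60 and 15.4 CPM in lab rats (log2 fold change 2.91, SE 0.45, FDR = 0.00221, edgeR). The call was lost without lab rat 1 (FDR = 0.0101) or lab rat 2 (FDR = 0.0113, edgeR). Mt2 overlapped, with 8.01, 14.9 and 19.7 CPM in woodrats and 23.0, 19.0 and 51.6 CPM in lab rats (log2 fold change -1.12, FDR = 0.0842, edgeR). Mt1 and Mt2 are close paralogs, and how well reads of either species were divided between them was not tested. Summed, they had 47.3, 102 and 126 CPM in woodrats and 30.0, 27.6 and 67.0 CPM in lab rats, so that lab rat 3 was above woodrat 1. Mt3 was lower in woodrats (0.781, 0.694 and 1.07 CPM against 3.47, 3.14 and 10.2 CPM, log2 fold change -2.67, FDR = 0.00912, edgeR), but none of the 6 fits without 1 animal called it, and its value was -1.93 without lab rat 3. Mt4, the metallothionein of stratified squamous epithelia, overlapped at 712 to 1160 CPM in woodrats and 888 to 1860 CPM in lab rats.

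Nipal3, which belongs to a family of putative magnesium transporters, was higher in woodrats. It had 40.4, 26.5 and 37.7 CPM in woodrats and 4.59, 2.98 and 1.16 CPM in lab rats. The species were well apart, at 3.54 on the log2 scale (SE 0.46, FDR = 0.00118, edgeR), and all 14 alternative fits called it.

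The members also varied between animals of one species. Woodrat 1 was the lowest woodrat for 20 of the 32 tested members (62.5%, against 39.1% of all tested genes), and woodrat 3 was the highest for 18 (56.2%, against 37.9%). Lab rat 3 was the lowest lab rat for 23 members (71.9%, against 46.1%). The ratio of the highest to the lowest woodrat had a median of 2.36 over the members and 1.66 over all tested genes, and in lab rats these medians were 1.81 and 1.66. Cnnm4, Tfrc, Atp7a, Slc31a1, Slc39a10 and Slc41a1 were all lowest in woodrat 1 and highest in woodrat 3. The summed level of the 7 squamous markers was 13700, 28800 and 34900 CPM in woodrats 1, 2 and 3 and 10400, 12200 and 15600 CPM in lab rats 1, 2 and 3, so that in lab rats the sum was highest in the animal in which most members were lowest. Most of this lab rat sum was Krt13, with 8400, 9200 and 13100 CPM in lab rats 1, 2 and 3. Dsg3, Trp63 and Ivl were instead lowest in lab rat 3. The part of the sampled layers of the foregut wall in this pattern was not tested.

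**Figure D5:**
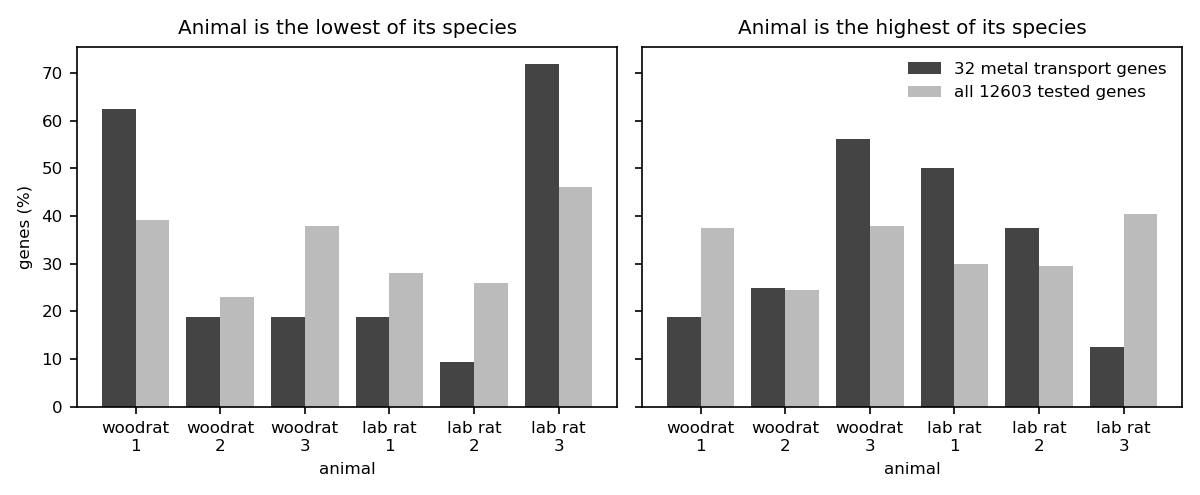
Percent of genes for which each animal was the lowest (left) or highest (right) of the 3 animals of its species, for the 32 tested members (dark bars) and all 12603 tested genes (light bars). Woodrat 1 and lab rat 3 are lowest for 62.5% and 71.9% of the members, against 39.1% and 46.1% of all genes.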

How the data were processed

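Polyadenylated RNA was sequenced with strand information, 1 library per animal. The authors used Trimmomatic for trimming, FLASH for merging mates and cross_match for alignment to mouse coding transcripts of GENCODE M7, left out genes prone to multiple alignment, and deposited raw read counts per gene for unique alignments on the correct strand. Tool versions are not given in the sources used here, and the labels name the build mm9. Woodrat and lab rat reads differ unequally from mouse, and the effect on single genes was not tested. Every gene in the files has woodrat reads, so genes read in lab rats alone were not analysed here. Counts were joined by gene identifier (Python 3.11.15, pandas 2.3.3). In R 4.3.3, genes reaching 1 CPM in 3 or more animals (12603) were scaled with TMM and tested with edgeR 4.0.16 (legacy quasi-likelihood F-test, species as only term, prior count 0.125, Benjamini-Hochberg over all tested genes, FDR below 0.01). The standard error is the size of the log2 fold change over the square root of F. On simulated counts with 200 changed genes, 76% of those changed by 2 on the log2 scale and 100% of those changed by 4 were recovered. The simulation gave every gene the same dispersion, so recovery of genes that spread more widely between animals was not tested.

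The members, companion genes and markers were chosen with earlier results of these data known. Values per animal are given for members that were called, were among the 3 nearest to the threshold, or did not overlap with an absolute log2 fold change above 1, and companion genes are named where called. Other genes with values per animal (such as Tfrc, Steap4, Slc40a1, Slc30a5, Slc30a9, Slc39a1, Slc39a7, Atp7a and Mt2) were picked after their values were seen. Between animals of 1 species, chi-square divided by its degrees of freedom was 10.12 to 121.27. No source says more about how the animals of a species relate, and p-values cover the spread between these animals. Nothing in the labels ties same-numbered animals together. The alternatives were other filters, scalings and tests (DESeq2 1.42.0), a replicate block, and each animal left out. The 5 CPM filter kept genes reaching 5 CPM in 3 or more animals. The study used the same level by another rule, removing genes below 5 CPM in 3 or more samples. Fits of single companion genes under the alternatives were added after seeing the data. Depth limits genes with few reads, and 95% intervals of shares are Wilson intervals (scipy 1.17.1).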

Additional observations from a re-analysis of the deposited data

How the results depend on the processing

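The 12603 tested genes held 2516 calls, which became 3916 with DESeq2, 5026 at an FDR below 0.05, and 898 to 2626 when 1 animal was left out. Members called higher in woodrats numbered 3 without a filter, 6 with DESeq2, 9 at an FDR below 0.05 and 1 to 3 without 1 animal. Members called lower numbered 1 with the 5 CPM filter, 1 with total counts, 5 with DESeq2, 5 at an FDR below 0.05 and 0 to 2 without 1 animal. The 0 came from edgeR without any single lab rat, where 5 to 6 members had an unadjusted p below 0.05 in that direction. Companion genes called higher numbered 6 with DESeq2, 10 at an FDR below 0.05 and 1 to 4 without 1 animal, and those called lower 3, 8, 10 and 2 to 4 with the 5 CPM filter, DESeq2, an FDR below 0.05 and 1 animal left out. The 5 CPM filter tests fewer genes (it leaves out Slc39a2, and Slc11a2 did not pass under it), and for the rest the cause was not tested.

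Same-numbered animals had correlations of -0.289, -0.088 and -0.279 between their deviations from the species means, and the numbers are only names. A fit with the replicate block called 716 genes, with 0 members lower (5 had an unadjusted p below 0.05) and 2 companion genes lower. Slc41a2 stayed called in the block and in all other fits. The direction reversed for 7 members that overlapped between the species. When each animal was left out, the log2 fold change ranged from -1.07 to 0.30 for Slc31a1 (0.07 and 0.05 without woodrat 2 and lab rat 2), from -0.82 to 0.30 for Slc39a11 (0.00 without lab rat 2), from -0.77 to 0.09 for Slc39a6, from -0.27 to 0.17 for Slc31a2, from -0.21 to 0.81 for Cnnm3, from -0.11 to 0.88 for Slc39a10 and from -0.21 to 0.93 for Slc41a1. The highest values of Slc31a1, Slc39a11 and Slc39a6 came without woodrat 1, that of Slc31a2 without lab rat 1, and the lowest of the other 3 without woodrat 3. Over all members and alternatives, 401 log2 fold changes kept their direction and side of the threshold, 20 lost the call, 12 gained it and 10 reversed.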

Other observations

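Several companion genes of iron and haem handling had no overlap between the species but did not pass the threshold in edgeR's test. Fbxl5, the iron-sensing subunit that marks iron regulatory protein for breakdown, had 49.6, 52.3 and 38.3 CPM in woodrats and 21.0, 26.5 and 24.1 CPM in lab rats (log2 fold change 0.97, FDR = 0.0142, edgeR). Ncoa4, the receptor that delivers ferritin to the lysosome, had 93.4, 93.0 and 92.0 CPM in woodrats and 53.5, 58.9 and 27.7 CPM in lab rats (log2 fold change 0.99, FDR = 0.0303, edgeR). The haem transporter Slc48a1 was higher in each woodrat (48.4, 32.9 and 29.5 CPM against 18.1, 16.2 and 14.6 CPM, FDR = 0.0119, edgeR), and Slc46a1, a folate carrier that also takes haem, was lower (5.08, 7.91 and 8.29 CPM against 18.5, 16.9 and 15.6 CPM, FDR = 0.0127, edgeR). The ferritin subunits Fth1 and Ftl1 overlapped. These genes were picked after their values were seen, and in 7078 of all 12603 tested genes (56.2%) the species did not overlap either.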
